A study of Mus musculus with 12 samples.

Results

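The phagocyte NADPH oxidase genes examined here are Cybb, Cyba, Ncf1, Ncf4 and Rac2, which are 5 of the 23420 genes listed in both deposited count tables of mouse liver RNA. They were taken by name, as subunits of the NOX2 oxidase and its GTPase, and all 5 had counts in all 12 libraries. The study sequenced polyadenylated RNA from dissected liver of C57BL/6 mice in 4 groups of 3 libraries. The floxed control, p62F/F, carried loxP-flanked p62 (the gene Sqstm1, an autophagy receptor) and no Cre. The p62Δhep group added Alb-Cre, which is driven by the albumin promoter and acts in hepatocytes. The Tsc1Δhep group had Alb-Cre and floxed Tsc1, which encodes hamartin, an inhibitor of the growth kinase mTORC1, with p62 intact. The Tsc1/p62Δhep group had Alb-Cre and both floxed genes. The p62F/F and p62Δhep libraries are in one count table and the Tsc1Δhep and Tsc1/p62Δhep libraries in the other. All 3 Cre groups thus share Alb-Cre, and no Tsc1-floxed group without Cre was analysed here. The labels used here do not state the age, sex or diet of each mouse.

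NOX2 is the oxidase of phagocytes such as neutrophils and macrophages. Its membrane core, cytochrome b558, is a pair of proteins, gp91phox (Cybb), which moves electrons from NADPH to oxygen to make superoxide, and p22phox (Cyba), which stabilises it. On activation cytosolic proteins, among them p47phox (Ncf1) and p40phox (Ncf4), join the core together with a Rac GTPase, which in haematopoietic cells is mainly Rac2. In liver the complex is known chiefly from Kupffer cells, the resident macrophages, and from recruited leukocytes, whereas the Cre used here acts in hepatocytes.

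The promoters of 3 of the 5 genes were listed in the RefSeq table (GRCm38.p6). The 250 bases before each start are shown because all 3 genes were lower in Tsc1/p62Δhep than in Tsc1Δhep liver, as described below. All 3 lie on the minus strand, for Cybb at chrX:9469325-9469574, for Cyba at chr8:122432941-122433190 and for Ncf1 at chr5:134229626-134229875. Capitals mark GGAA, the core read by ETS factors such as PU.1 (or its reverse complement TTCC), and CCAAT.
Cybb: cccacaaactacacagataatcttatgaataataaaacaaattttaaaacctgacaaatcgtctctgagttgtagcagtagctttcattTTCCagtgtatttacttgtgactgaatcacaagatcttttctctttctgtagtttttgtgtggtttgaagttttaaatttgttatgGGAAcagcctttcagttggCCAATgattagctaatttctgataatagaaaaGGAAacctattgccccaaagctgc
Cyba: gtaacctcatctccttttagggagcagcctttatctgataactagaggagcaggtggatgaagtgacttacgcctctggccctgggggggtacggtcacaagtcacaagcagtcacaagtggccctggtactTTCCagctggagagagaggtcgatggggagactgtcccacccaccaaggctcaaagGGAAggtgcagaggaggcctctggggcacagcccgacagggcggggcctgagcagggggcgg
Ncf1: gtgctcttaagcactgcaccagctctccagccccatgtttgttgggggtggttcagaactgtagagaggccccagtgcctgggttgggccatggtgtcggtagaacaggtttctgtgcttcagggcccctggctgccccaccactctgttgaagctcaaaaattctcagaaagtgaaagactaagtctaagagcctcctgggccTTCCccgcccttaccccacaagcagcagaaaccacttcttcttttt
GGAA occurred 3 times before Cybb, 2 times before Cyba and 1 time before Ncf1 on either strand, and 93.4% of the 32851 mouse promoters of this length hold it. CCAAT occurred 1 time, before Cybb, and 33.8% of promoters hold it. These 2 short motifs were added after longer ones gave no match. GAGGAA (PU.1), an ETS-IRF composite motif, TTGCNNAA (C/EBP) and TGACTCA (AP-1), searched on both strands, were in none of the 3 windows, and 23.3%, 2.30%, 9.56% and 4.46% of all promoters hold them.

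The libraries held 15792048 to 33377247 counts. Sqstm1 stood at 316 to 351 CPM in p62F/F and 12.4 to 19.8 in p62Δhep, and at 789 to 1210 in Tsc1Δhep and 14.4 to 19.6 in Tsc1/p62Δhep, as the labels say. Tsc1 stood at 26.0 to 39.7 CPM in the p62 table and 5.39 to 13.7 in the Tsc1 table. Within Tsc1Δhep, library 3 was highest for Tsc1, at 10.9 CPM against 5.76 and 5.39. CPM, the count relative to the library total, is scaled within a table by trimmed means of M values unless library totals are named. The labels do not tie each library to an animal of its own, so p-values measure only the spread between these libraries, which may be technical. That spread was beyond counting noise, with a chi-square of 36.2 to 325 per gene between libraries of a group. In bulk tissue, fewer cells of a type and less RNA per cell cannot be told apart.

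With Tsc1 deleted, loss of p62 went with lower NOX2 subunit RNA. At an adjusted p under 0.05, edgeR's quasi-likelihood test (Benjamini-Hochberg adjusted) called 4 of the 5 genes lower in Tsc1/p62Δhep than in Tsc1Δhep liver and 0 higher. Of the 12620 genes tested 14.9% were called lower, and 24.2% in either direction. The median log2 fold change of the 5 was -2.55, against -0.05 over all genes tested. All 5 had groups that did not overlap, which held in the lower direction for 23.4% of genes tested and in either direction for 45.7%.

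Of the membrane core, Cybb, the catalytic subunit, stood at 113, 236 and 158 CPM in the 3 Tsc1Δhep libraries, against 9.04, 9.11 and 9.28 in the 3 Tsc1/p62Δhep libraries. The lowest Tsc1Δhep library was far above the highest library lacking both genes, and the latter 3 were nearly equal. Cybb fell by 4.21 on the log2 scale (SE 0.32, 18.5-fold, edgeR adjusted p = 0.000553). Cyba, its stabilising partner, stood at 40.1, 41.7 and 6.99 CPM in Tsc1Δhep livers, against 3.11, 3.34 and 3.96 in Tsc1/p62Δhep. Tsc1Δhep library 3 was low for Cyba though not for Cybb, and still lay above all 3 libraries of the other group. Cyba fell by 3.09 (SE 0.63, 8.52-fold, edgeR adjusted p = 0.0131).

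Of the cytosolic subunits, Ncf1, the organiser that carries the others to the membrane, stood at 3.81, 8.70 and 4.32 CPM in Tsc1Δhep livers, against 1.98, 1.90 and 1.49 in Tsc1/p62Δhep. Library 2 was the high one of Tsc1Δhep, and the groups did not overlap. Ncf1 fell by 1.65 (SE 0.42, 3.14-fold, edgeR adjusted p = 0.0266). Ncf4, which binds the lipid phosphatidylinositol 3-phosphate on phagosomes, stood at 3.21, 2.44 and 1.5 CPM in Tsc1Δhep livers, against 0.353, 0.721 and 0.130 in Tsc1/p62Δhep. The latter rest on 18 counts in the 3 libraries together, and the groups did not overlap. Ncf4 fell by 2.55 (SE 0.62, 5.87-fold, edgeR adjusted p = 0.0237). Rac2, the GTPase, stood at 3.34, 7.75 and 7.09 CPM in Tsc1Δhep livers, against 2.75, 2.75 and 1.95 in Tsc1/p62Δhep. Its groups did not overlap, but Tsc1Δhep library 1 came close to the other group. Its log2 fold change of -1.29 (SE 0.40) did not pass the edgeR test (adjusted p = 0.0528).

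How firmly each call held differed between the subunits. Cybb passed the edgeR test in all 6 fits that left out 1 library, with adjusted p from 0.000312 to 0.00810. Cyba did not pass without Tsc1/p62Δhep library 1 (adjusted p = 0.0662) or library 2 (0.0604). Ncf1 did not pass without Tsc1Δhep library 2 (adjusted p = 0.0886) or without Tsc1/p62Δhep library 1 (0.0984), 2 (0.0989) or 3 (0.0887), all by edgeR. Ncf4 did not pass without Tsc1Δhep library 2 (adjusted p = 0.0714) or Tsc1/p62Δhep library 1 (0.112) or 3 (0.0674), and Rac2 passed without Tsc1Δhep library 1 (0.0111). Of the 5 genes, 5 passed without Tsc1Δhep library 1, 2 without Tsc1Δhep library 2, 1 without Tsc1/p62Δhep library 1, and 2 without library 2 or 3 of that group. Over all genes, lower calls fell from 1886 to 1162 without Tsc1Δhep library 2. They fell to 760, 798 and 1219 without Tsc1/p62Δhep libraries 1, 2 and 3. Without Tsc1Δhep library 3 and Tsc1/p62Δhep library 1 together, the pair with the most Tsc1 and the most Rn45s (ribosomal precursor) counts of their groups, 2 of the 5 passed, Ncf1 standing at an edgeR adjusted p of 0.0607 and Ncf4 at 0.0602.

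**Figure D1:**
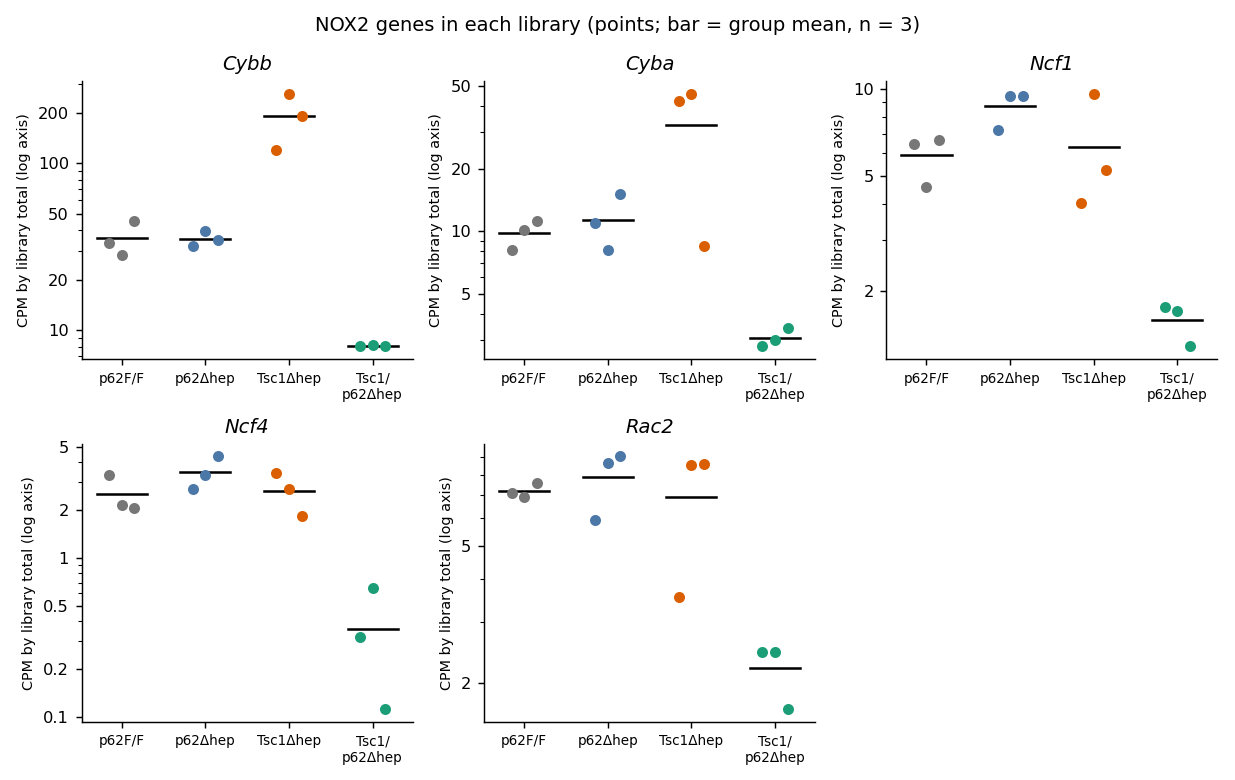
CPM by library total (log axis, a separate scale for each gene) of the 5 genes in each of the 12 libraries; points are libraries 1, 2 and 3 from left and bars are group means of 3. For each gene the 3 Tsc1/p62Δhep libraries lie below all others; for Cybb alone among the 5, all 3 Tsc1Δhep libraries lie above all others. The share of all genes with such an order across the count tables was not computed.

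Other parts of the complex were read from a list of 5 partner genes, of which Cybc1 had no row under that name and was not analysed here. None of the other 4 passed with Tsc1 deleted by edgeR. An unadjusted p below 0.05 was found for 2 of the 4, beside 5015 of all 12620 genes tested. Hvcn1, the voltage-gated proton channel that offsets the charge NOX2 moves, stood at 2.77, 3.52 and 1.64 CPM against 0.989, 0.918 and 1.23, and its log2 fold change was -1.34 (edgeR adjusted p = 0.0535). Rac1, the widely expressed relative of Rac2, stood at 197, 141 and 140 CPM against 175, 163 and 166, a log2 fold change of 0.08 (SE 0.22, edgeR adjusted p = 0.817). The Rac1 groups overlapped. Exons of Hvcn1 overlap Tctn1 and those of Rac1 overlap Daglb on the opposite strand, and no source used here states whether counting used strand, so the reads of each pair cannot be told apart. Rap1a and Rap1b, small GTPases found with the cytochrome, did not pass.

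Of the other NADPH oxidases, Nox1 and Nox3 had no counts in any library, while Duox1, Duox2, Duoxa1 and Duoxa2 were near 0 and not tested. Noxo1 and Noxa1, relatives of the cytosolic NOX2 subunits, had 29 to 80 and 3 to 94 counts in a group of 3 libraries. Noxa1 had 10, 64 and 20 counts in Tsc1Δhep and 0, 2 and 1 in Tsc1/p62Δhep, and was not tested there. Nox4, an oxidase that works with p22phox without the cytosolic subunits and makes mainly hydrogen peroxide, stood at 75.7, 64.3 and 87.0 CPM in Tsc1Δhep livers, against 117, 134 and 176 in Tsc1/p62Δhep. The groups did not overlap, in the opposite direction to Cybb. Nox4 rose by 0.91 (SE 0.24, 1.88-fold, edgeR adjusted p = 0.0297), beside 9.25% of genes called higher. The Nox4 call was lost without Tsc1Δhep library 2 (edgeR adjusted p = 0.112) or Tsc1/p62Δhep library 1 (0.0691), 2 (0.0980) or 3 (0.0935).

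With Tsc1 intact, loss of p62 left none of the 5 genes past the test. By edgeR 0 of 5 were called in either direction, beside 0.0159% of the 12567 genes tested, all of them lower. The groups overlapped for all 5, whereas 12.8% of genes tested had groups that did not overlap (6.65% lower and 6.17% higher). None of the 5 had an unadjusted p below 0.05, beside 1020 of the 12567 genes tested. DESeq2 likewise called 0 of 5, beside 1.1% of genes lower and 0.263% higher. The median log2 fold change of the 5 was 0.24 against 0.00 over all genes. A miss in 3 against 3 libraries does not show that the levels were alike. Of these groups only p62Δhep has Cre, so p62 loss and Cre cannot be told apart here.

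Cybb stood at 35.9, 26.2 and 44.4 CPM in p62F/F and at 29.5, 41.9 and 35.9 in p62Δhep, a log2 fold change of 0.01 (SE 0.21, edgeR adjusted p = 0.993). Cyba stood at 8.76, 9.45 and 11 CPM against 10.1, 8.66 and 15.6, a change of 0.24 (SE 0.24, edgeR adjusted p = 0.826). The p62Δhep libraries of Cybb lay within the p62F/F range, and library 3 was the high one for Cyba. Ncf1 stood at 6.97, 4.25 and 6.50 CPM against 6.65, 10.1 and 9.78, a change of 0.59 (SE 0.26, edgeR adjusted p = 0.619). Ncf4 stood at 3.59, 2.01 and 2.00 CPM against 2.52, 3.54 and 4.50, a change of 0.48 (SE 0.34, edgeR adjusted p = 0.756). Neither cytosolic subunit separated the groups, although Ncf1 was higher in 2 p62Δhep libraries than in any p62F/F library. Rac2 stood at 7.68, 6.45 and 7.42 CPM against 5.49, 9.27 and 9.37, a change of 0.16 (SE 0.24, edgeR adjusted p = 0.887). The p62Δhep libraries of Rac2 lay on both sides of the p62F/F range. Nox4 stood at 46.7, 73.7 and 46.5 CPM against 48.5, 35.1 and 33.2, a change of -0.52 (SE 0.23, edgeR adjusted p = 0.619).

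The difference between the p62 effects in the 2 Tsc1 backgrounds was tested itself, as an interaction over all 12 libraries. By edgeR 4 of the 5 genes had a lower p62 effect with Tsc1 deleted, beside 9.32% of 13231 genes tested (6.76% had a higher one), and the median difference of the 5 was -3.03 against -0.07 over all genes. The log2 difference was -4.23 for Cybb (SE 0.39, edgeR adjusted p = 0.000189). It was -3.34 for Cyba (SE 0.71, edgeR adjusted p = 0.0107), -2.25 for Ncf1 (SE 0.49, 0.0121) and -3.03 for Ncf4 (SE 0.71, 0.0159). These 4 passed in all 12 fits that left out 1 library. For Rac2 it was -1.46 (SE 0.47, edgeR adjusted p = 0.0536), which passed without p62Δhep library 1 or Tsc1Δhep library 1 and in no other of the 12 fits. Among the 4 partners Hvcn1 passed, with a difference of -1.91 (SE 0.53, edgeR adjusted p = 0.0305) that held in 5 of the 12 fits that left out 1 library, and Nox4 differed by 1.42 (SE 0.34, edgeR adjusted p = 0.0174) in the other direction. The tested difference draws on the same Tsc1Δhep and Tsc1/p62Δhep libraries as the comparison with Tsc1 deleted. It also includes any effect of Cre, which p62F/F lacks and p62Δhep has, whereas both Tsc1-deleted groups have it.

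**Figure D2:**
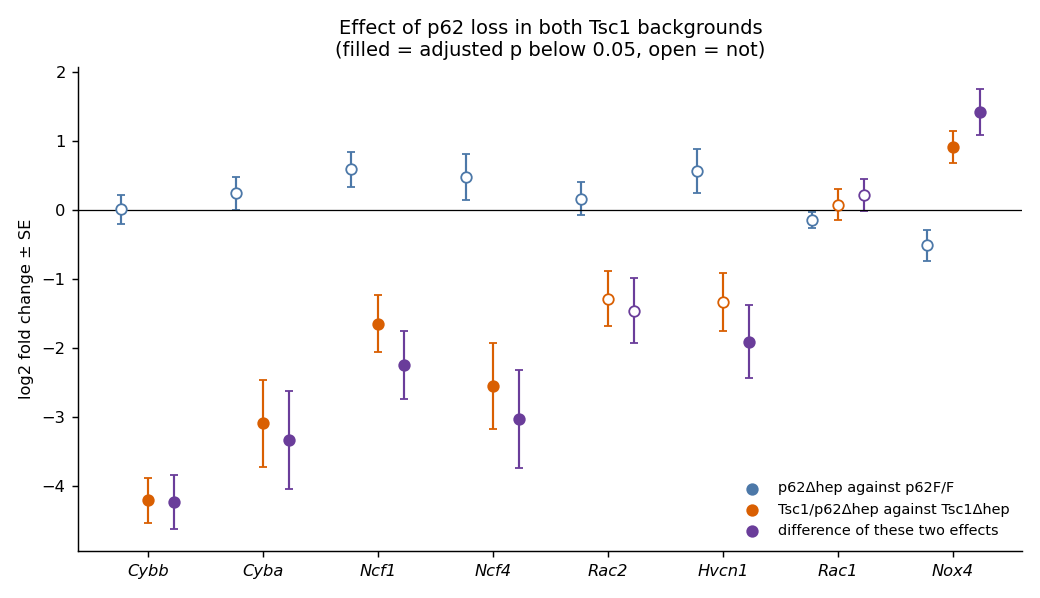
Log2 fold change with its standard error (vertical axis) for the 5 genes, the partners Hvcn1 and Rac1, and Nox4 (horizontal axis), for p62 loss with Tsc1 intact, p62 loss with Tsc1 deleted, and the difference between them; filled points passed the edgeR test at an adjusted p below 0.05. The Tsc1-intact points are all open and lie between -0.52 and 0.59, whereas Cybb reaches -4.21 with Tsc1 deleted and Nox4 lies at 0.91.

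Levels by library total were then set side by side over the 4 groups, with no test, because the count table and the Tsc1 genotype cannot be told apart. Cybb averaged 35.6 ± 8.83 CPM in p62F/F, 35.3 ± 3.67 in p62Δhep, 191 ± 70.5 in Tsc1Δhep and 8.10 ± 0.0735 in Tsc1/p62Δhep (SD, n = 3 each). The Tsc1Δhep mean was 5.36 times and the Tsc1/p62Δhep mean 0.227 times that of p62F/F, and neither range overlapped that of p62F/F. The order was thus Tsc1Δhep, then p62F/F and p62Δhep, which overlapped, then Tsc1/p62Δhep. Cyba averaged 9.84 ± 1.59, 11.4 ± 3.51, 32.4 ± 20.8 and 3.07 ± 0.325 CPM in the same order of groups (SD, n = 3). Its Tsc1Δhep range overlapped that of p62F/F through library 3, at 8.52 CPM. Ncf1, on this scale alone, did not overlap between p62F/F (4.58 to 6.64 CPM) and p62Δhep (7.20 to 9.46 CPM).

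The other 3 genes were not higher in Tsc1Δhep than in the floxed control beyond the spread of the libraries. The Tsc1Δhep mean was 1.07 times that of p62F/F for Ncf1, 1.05 times for Ncf4 and 0.959 times for Rac2, and all 3 ranges overlapped. In Tsc1/p62Δhep liver every library lay below every p62F/F library for all 5 genes. The mean there was 0.312 times that of p62F/F for Cyba, 0.270 times for Ncf1, 0.143 times for Ncf4 and 0.306 times for Rac2. The share of all genes without overlap between these groups of different count tables was not computed. The order of the 5 genes thus has no background to be read against.

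Per kilobase of exon (GENCODE vM21 exon unions), the membrane core made up most of the summed level of the 5 genes in each group. In p62F/F, Cyba took 49.3% ± 5.35 of that sum, Cybb 27.7% ± 3.61, Rac2 8.90% ± 0.714, Ncf1 7.63% ± 1.35 and Ncf4 6.55% ± 2.38 (SD, n = 3). In Tsc1Δhep the Cybb share was 28.9%, 44.0% and 70.0% in libraries 1, 2 and 3, while that of Cyba was 65.5%, 49.6% and 19.8%. The balance within cytochrome b558 differed more between the Tsc1Δhep libraries than in Tsc1/p62Δhep, where the Cybb share was 22.6% to 24%. The Ncf1 share was 1.61% to 3.15% in Tsc1Δhep and 6.08% to 11.9% in the other 3 groups.

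The size of the Cybb difference was then set against other genes of the same library, as ratios of counts, which need no scaling. The 9 reference genes were chosen with earlier values of these data known. The ratio of Cybb to Ncf1 was 5.16 to 6.83 in p62F/F, 3.67 to 4.44 in p62Δhep, 27.1 to 36.6 in Tsc1Δhep and 4.57 to 6.22 in Tsc1/p62Δhep. That of Cybb to Rac2 was 4.07 to 5.99, 3.83 to 5.38, 22.3 to 33.9 and 3.28 to 4.77. For both, the 3 Tsc1Δhep libraries stood apart. The other groups overlapped for Rac2, but for Ncf1 all 3 p62Δhep libraries lay below the p62F/F and Tsc1/p62Δhep ranges. Against Ptprc (CD45, on all leukocytes) the ratio was 1.57 to 2.28, 1.51 to 1.58, 8.29 to 11 and 1.54 to 2.73. Against Emr1 (the older symbol of Adgre1, the macrophage antigen F4/80) it was 1.56 to 1.95, 1.10 to 1.68, 8.83 to 14.5 and 1.74 to 2.31. In all 3 Tsc1Δhep libraries Cybb counts were thus high relative to Ncf1, Rac2, Ptprc and Emr1.

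Against the chemokine receptor gene Ccr2, of recruited monocytes, the Cybb ratio was 3.43 to 6.46 in p62F/F and 4.54 to 8.19 in p62Δhep. It was 7.25 to 17.7 in Tsc1Δhep and 10.7 to 11.9 in Tsc1/p62Δhep, where Ccr2 had few counts. The Tsc1-deleted groups thus overlapped. Against Cyba it was 2.82, 5.66 and 22.6 in Tsc1Δhep and 2.34 to 2.91 in Tsc1/p62Δhep, also with overlap. Against Ncf4 it was 35.3 to 105 in Tsc1Δhep and 12.6 to 71.5 in Tsc1/p62Δhep, where Ncf4 had few counts, and the groups overlapped. Between Tsc1Δhep and Tsc1/p62Δhep, 6 of the 9 ratios gave a two-sided exact permutation p of 0.1, the smallest that 3 against 3 allows (Benjamini-Hochberg adjusted 0.15). These were the ratios to Ncf1, Rac2, Ptprc, Emr1, Csf1r and Cd68. The ratios to Cyba and Ncf4 gave an exact p of 0.2 (adjusted 0.225) and that to Ccr2 gave 1.0. Between p62F/F and p62Δhep, only the ratio to Ncf1 gave an exact permutation p of 0.1 (adjusted 0.643). No ratio could pass a threshold of 0.05 in this design.

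**Figure D3:**
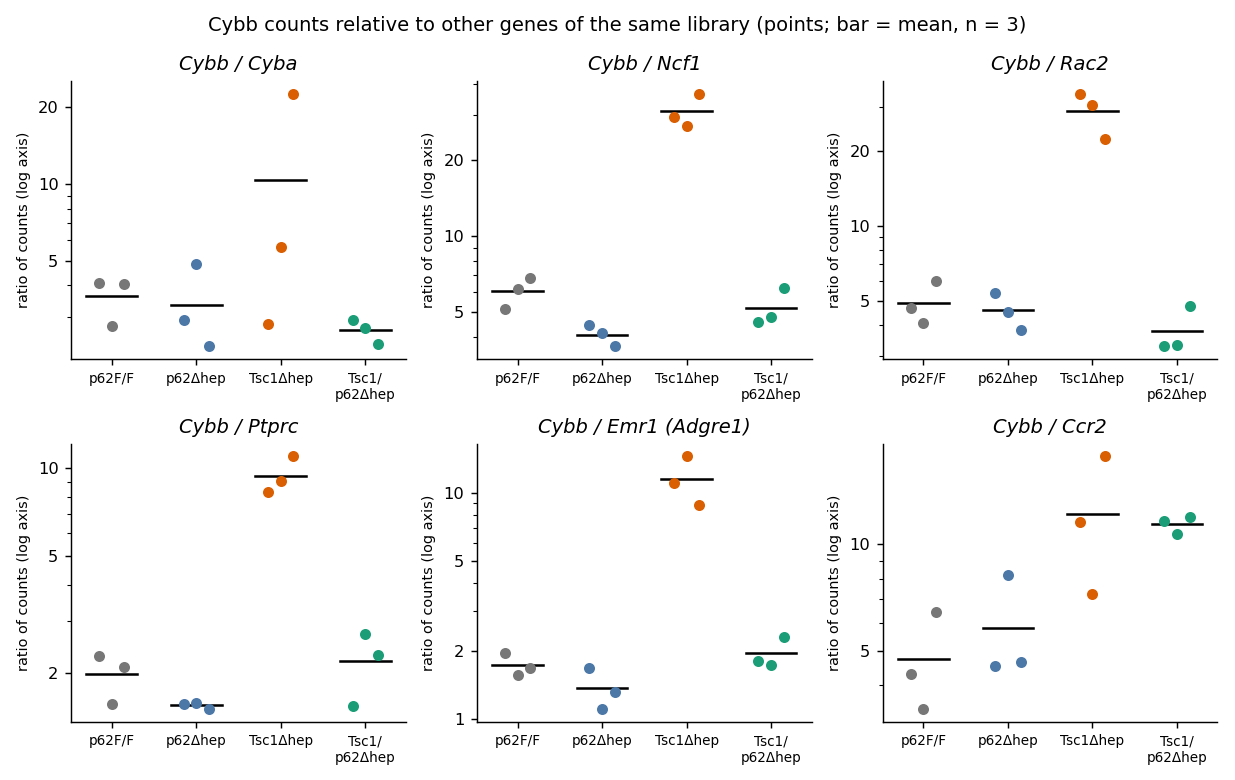
Ratio of Cybb counts to those of 6 other genes in each library (log axis, a separate scale for each panel); points are libraries 1, 2 and 3 from left and bars are means of 3. For Ncf1, Rac2, Ptprc and Emr1 the Tsc1Δhep libraries stand above the rest, for Cyba Tsc1Δhep library 1 lies within the other groups, and for Ccr2 the Tsc1Δhep and Tsc1/p62Δhep libraries overlap.

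Most tested genes that trigger the oxidase were called lower when p62 was lost with Tsc1 deleted. Of 28 listed receptors and kinases, 26 were tested, and edgeR called 19 lower and 0 higher, beside 14.9% of all genes tested called lower, with a median log2 fold change of -1.91 against -0.05 over all genes. Itgam (CD11b, the integrin chain of complement receptor 3) stood at 7.37, 7.61 and 4.13 CPM in Tsc1Δhep livers, against 0.777, 0.918 and 0.649 in Tsc1/p62Δhep (log2 fold change -3.02, edgeR adjusted p = 0.00287). Clec7a (Dectin-1, a receptor for fungal glucan) stood at 29.1, 17.8 and 11.6 CPM against 3.04, 2.29 and 2.53 (-2.89, edgeR adjusted p = 0.00323). Fcgr1, the high-affinity IgG receptor, stood at 8.10, 8.72 and 3.47 CPM against 0.989, 0.655 and 0.909 (-2.99, edgeR adjusted p = 0.00515). None of the 3 receptors had overlapping groups. Pak1, a Rac-activated kinase that can phosphorylate p47phox, stood at 37.1, 20.6 and 32.6 CPM against 0.989, 1.25 and 5.06 (-3.62, edgeR adjusted p = 0.00742). In place of 19, 9 passed without Tsc1Δhep library 2, then 9, 5 and 11 without Tsc1/p62Δhep libraries 1, 2 and 3. In the same order of fits, all genes called lower fell from 1886 to 1162, 760, 798 and 1219. Without Tsc1Δhep library 3 and Tsc1/p62Δhep library 1 together, 10 of the listed genes passed. With Tsc1 intact, edgeR called 0 of 28, beside 0.0159% of the 12567 genes tested. An unadjusted p below 0.05 was found for 2 of the 28, beside 1020 of the 12567.

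Regulators of Rac moved in both directions. Of 15 listed, 14 were tested with Tsc1 deleted, and edgeR called 6 lower and 2 higher, beside 14.9% and 9.25% of all genes tested. The median log2 fold change was -1.09. Arhgdia, a GDP-dissociation inhibitor that holds Rac proteins in the cytosol, fell by 1.79 (edgeR adjusted p = 0.00245). Arhgap15 and Arhgap25, which switch Rac off and act in leukocytes, fell by 2.51 and 1.74 (edgeR adjusted p = 0.0187 and 0.0211). Neither passed without Tsc1Δhep library 2 or any 1 of the Tsc1/p62Δhep libraries (largest edgeR adjusted p 0.0854 for Arhgap15 and 0.105 for Arhgap25). Prex1, an exchange factor that switches Rac on, was among those that rose, at 2.25, 7.69 and 10.3 CPM in Tsc1Δhep and 45.4, 39.1 and 38.8 in Tsc1/p62Δhep (log2 fold change 2.61, edgeR adjusted p = 0.0102). Its Tsc1/p62Δhep libraries were all above its Tsc1Δhep libraries.

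Transcription factors known to act on NOX2 genes did not move as a group. Of 12 listed, 9 were tested with Tsc1 deleted, and edgeR called 1 lower and 2 higher, beside 14.9% and 9.25% of all genes tested. The median log2 fold change was -0.02. Sfpi1 (the older symbol of Spi1, which encodes PU.1) stood at 3.03, 6.04 and 4.36 CPM in Tsc1Δhep livers, against 1.55, 1.18 and 1.17 in Tsc1/p62Δhep (-1.78, edgeR adjusted p = 0.0158). Cebpb and Cebpe, of the C/EBP family, rose by 1.46 and 1.34 (edgeR adjusted p = 0.0183 and 0.0219). Sfpi1 and Cebpe did not pass without Tsc1Δhep library 2 or any 1 of the Tsc1/p62Δhep libraries (largest edgeR adjusted p 0.0837 and 0.0966), nor Cebpb without Tsc1/p62Δhep library 1 or 3 (largest 0.0747). Cebpb is also abundant in hepatocytes.

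Calls among enzymes that handle superoxide and peroxide also went in both directions, with Gpx3 the only lower one. Of 11 listed, 10 were tested with Tsc1 deleted, and edgeR called 1 lower and 3 higher, beside 14.9% and 9.25% of all genes tested. The median log2 fold change was -0.41. Cat, which breaks down hydrogen peroxide, stood at 2050, 2308 and 2306 CPM in Tsc1Δhep livers, against 5060, 5336 and 5164 in Tsc1/p62Δhep (log2 fold change 1.22, edgeR adjusted p = 0.00853). Sod2, the mitochondrial superoxide dismutase, and Gpx1, the cytosolic glutathione peroxidase, rose by 0.96 and 1.17 (edgeR adjusted p = 0.0129 and 0.0382), and both lost the call without Tsc1Δhep library 2 or Tsc1/p62Δhep library 1 or 2 (largest adjusted p 0.0641 for Sod2 and 0.109 for Gpx1, which also lost it without library 3). Gpx3, the secreted glutathione peroxidase, stood at 2674, 1044 and 622 CPM in Tsc1Δhep livers, against 4.59, 6.03 and 15.5 in Tsc1/p62Δhep (-7.37, edgeR adjusted p = 0.00173). Gpx3 stood at 8.17 to 10.4 CPM in p62F/F and 8.56 to 16.6 in p62Δhep, so the Tsc1Δhep libraries were the high ones for this gene as they were for Cybb.

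**Figure D4:**
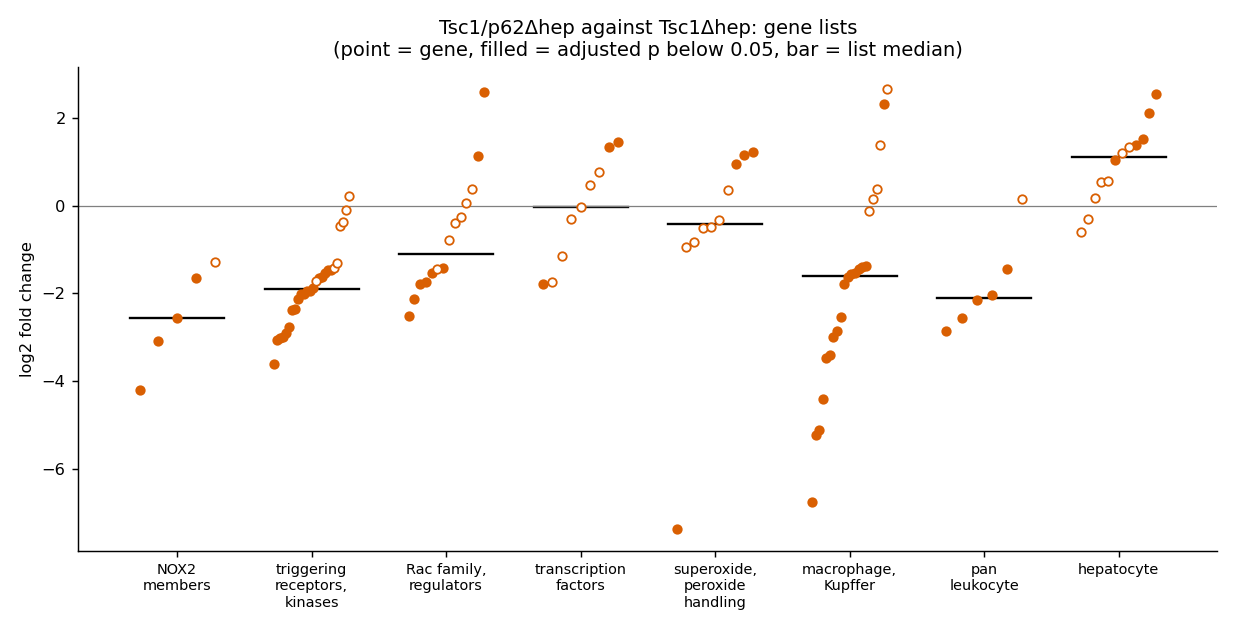
Log2 fold change of each tested gene (points) by list in Tsc1/p62Δhep against Tsc1Δhep liver; filled points passed the edgeR test at an adjusted p below 0.05 and bars are list medians. The medians lie at -2.55 for the 5 oxidase genes, -1.91 for the triggering genes, -1.59 for macrophage and -2.09 for pan leukocyte markers, and at 1.13 for hepatocyte markers.

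Markers of cells that can carry NOX2 were read from lists, and their counts differed between the lists. Beside each list, edgeR called 14.9% of all genes tested lower and 9.25% higher with Tsc1 deleted. Of 22 macrophage and Kupffer cell markers, all tested, edgeR called 16 lower and 1 (Cd163) higher with Tsc1 deleted, with a median log2 fold change of -1.59. Their summed level was 594 to 921 CPM in Tsc1Δhep and 209 to 273 in Tsc1/p62Δhep, and 903 to 1129 in p62F/F and 865 to 1472 in p62Δhep. These sums were scaled within each table. By library total, the sum was 723 to 1018 CPM in Tsc1Δhep and 966 to 1154 in p62F/F, so these ranges overlapped. Cybb by library total was 120 to 261 CPM in Tsc1Δhep and 28.2 to 45.4 in p62F/F. Of 6 pan leukocyte markers 5 were called lower, the exception being Lcp1, at a median of -2.09, and 3 passed without Tsc1/p62Δhep library 2. Their summed level overlapped, at 148 to 266 CPM in Tsc1Δhep and 143 to 191 in Tsc1/p62Δhep. That sum includes Lcp1, the gene not called lower, and so hides the fall of the other 5. Ptprc fell by 2.04 (SE 0.37, edgeR adjusted p = 0.00817). Of 11 neutrophil markers (Ly6g had no row and was not analysed here) 3 were tested and 2, S100a8 and S100a9, were called lower, each losing the call in 4 of the 6 fits that left out 1 library (largest edgeR adjusted p 0.130 and 0.152). Summed over the 10 neutrophil genes with a row, the level was 4.93 to 13.0 CPM in Tsc1Δhep, 0.918 to 1.88 in Tsc1/p62Δhep and 9.92 to 124 in the other table. With so little in Tsc1/p62Δhep, passing the count filter rested mainly on the Tsc1Δhep libraries. That favours lower calls, so the calls of S100a8 and S100a9 carry little weight. Of 12 hepatocyte markers 5 were called higher and 0 lower, at a median of 1.13. Called lower were also 3 of 6 cholangiocyte markers tested (summed level 5278, 2241 and 761 CPM in Tsc1Δhep libraries 1, 2 and 3, against 85.1 to 134 in Tsc1/p62Δhep), 4 of 9 stellate and 2 of 8 endothelial markers. Of the dendritic, T and NK, and B and plasma cell markers, only 2 of 7, 1 of 9 and 2 of 5 were tested. None was called, which says little with so few tested. The part of these cells in the oxidase result was not tested beyond the ratios above.

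The macrophage markers did not move as 1 block, and Ms4a7, Clec4f, Timd4, Vsig4 and Cd5l were picked after their values were seen. Ccr2, Cd14 and Cd68 fell by 4.40, 5.12 and 2.85 (edgeR adjusted p = 0.00354, 0.00308 and 0.00141). Lyz2, the lysozyme of myeloid cells, fell by 2.99 (edgeR adjusted p = 0.00433). Ms4a7, often used to mark recruited macrophages, stood at 13.1, 12.5 and 2.68 CPM against 0.424, 0.131 and 0.195, without overlap. Clec4f, which is specific to Kupffer cells, stood at 0.0433, 20.4 and 40.9 CPM in Tsc1Δhep livers, against 31.6, 22.5 and 25.8 in Tsc1/p62Δhep, and did not pass the test. Timd4 and Vsig4 had no counts in Tsc1Δhep library 1 and Cd5l stood there at 0.217 CPM, against 3.05 to 3.89, 7.67 to 10.6 and 26.2 to 32.2 CPM in Tsc1/p62Δhep. These 4 resident markers were at or near 0 in the library in which Cybb stood at 113 CPM. All 4 were higher in every library of the other table, where Clec4f stood at 112 to 203 CPM. Other genes of the same list of 22 did not follow these 4. Emr1 and Csf1r were not near 0 in Tsc1Δhep library 1, where Cybb counts were 11.1 and 3.50 times theirs. Tsc1Δhep library 1 was low for other cell types too. Summed stellate markers stood there at 58.4 CPM, against 317 and 301 in libraries 2 and 3. Summed endothelial markers stood at 44.7 CPM, against 95.2 and 179. C1qc passed the edgeR test as lower with Tsc1 deleted in all 6 fits that left out 1 library.

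**Figure D5:**
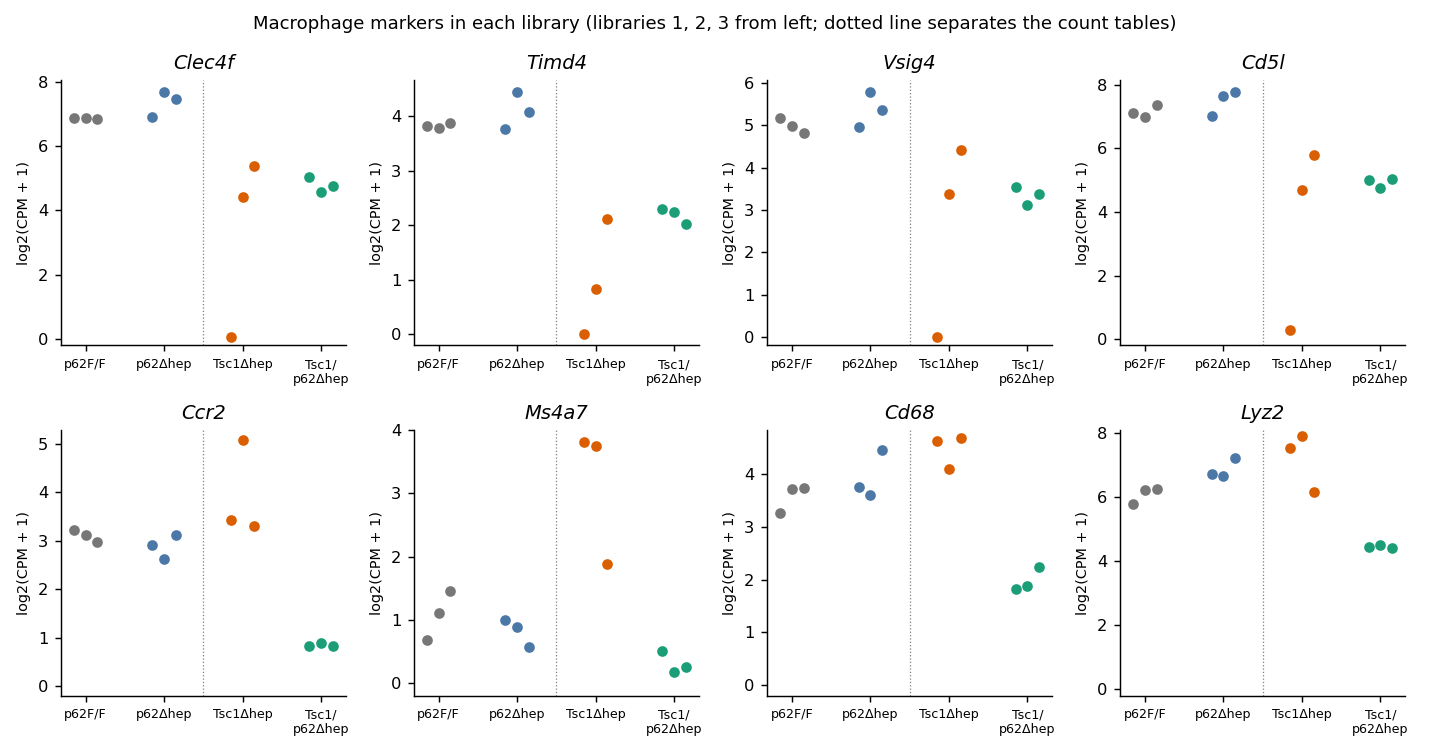
Log2 of CPM plus 1 (scaled within each table) of 8 macrophage markers in each library, with resident Kupffer cell genes above and recruited or general macrophage genes below; points are libraries 1, 2 and 3 from left and the dotted line separates the tables. The resident genes shown are at or near 0 in Tsc1Δhep library 1 and overlap between Tsc1Δhep and Tsc1/p62Δhep. The genes below do not overlap between those groups. The 8 are part of a list of 22, and the resident genes and Ms4a7 were picked after their values were seen.

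The 5 genes varied together over the libraries to different degrees. After each table's mean was removed from log2(CPM + 1), Pearson's r over the 12 libraries, which share tables and groups, ran from 0.53 for Cyba with Rac2 to 0.88 for Ncf1 with Rac2. In the 6 libraries of the p62 table alone, r between Cybb and Cyba was 0.08 and that between Ncf1 and Ncf4 was 0.82. Among 11708 genes tested in both tables, those most like the mean of the 5 over the 12 libraries were Tm6sf1 (r = 0.99), Rgs19 (0.99), Zbp1 (0.99), Ap1s2 (0.98), Nfkbie (0.98) and Igsf6 (0.98). All 6 fell with Tsc1 deleted, by 2.67, 2.87, 2.20, 3.52, 2.19 and 2.47, libraries that the choice itself used. Ranking by Spearman's correlation kept 2 of these 6, and ranking over the 6 Tsc1-table libraries kept 0.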

How the data were processed

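Polyadenylated liver RNA was sequenced in 12 libraries (directional kit; 75-base single reads or paired ends, per the labels' protocols; which library had which is not given). The authors deposited whole-number counts per gene symbol in 2 tables. The submitters' processing notes name build hg19 although the symbols are mouse; aligner, counter, annotation and strand setting are not stated in the sources used here. Counts were filtered (filterByExpr, minimum count 10), scaled by TMM within each table and tested with edgeR 4.0.16 quasi-likelihood fits in R 4.3.3, adjusted over all genes tested; the interaction used all 12 libraries. An SE is the log2 fold change over the square root of F. The fits were checked on simulated data. Alternatives were DESeq2 1.42.0, limma 3.58.1 (pseudocount 1), other scalings, no filter, a replicate block and libraries left out. Symbols changed since were matched through RefSeq synonyms (4 of 180 list genes; 2 unmatched). The 5 genes and all lists were chosen with earlier results of these data known. One gene of the partner list is not reported here. Genes named were the 5, partner and other NOX genes, the 4 smallest p among called genes of each list, the 6 most alike, Sqstm1, Tsc1 and Ptprc. Ratios and genes said to be picked otherwise were chosen after their values were seen.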

Additional observations from a re-analysis of the deposited data

Results flagged for a closer look

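For 6 genes the effect of p62 loss differed between the Tsc1-deleted and the Tsc1-intact background by the edgeR interaction test with Benjamini-Hochberg adjustment. The log2 difference (Tsc1 deleted minus Tsc1 intact) was -4.23 for Cybb, -3.34 for Cyba, -2.25 for Ncf1 and -3.03 for Ncf4, and these 4 passed in all 12 fits that left out 1 library. It was -1.91 for Hvcn1 (adjusted p = 0.0305), which passed in 5 of 12 such fits and not without p62F/F library 1 (0.0694) or 3 (0.0746), p62Δhep library 1 (0.0589) or 3 (0.0841), Tsc1Δhep library 2 (0.0734) or Tsc1/p62Δhep library 1 (0.0779) or 2 (0.0823). It was 1.42 for Nox4 (adjusted p = 0.0174), which did not pass without p62Δhep library 3 (0.0507).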

How the results depend on the processing

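With Tsc1 intact, 2 genes were lower and 0 higher. DESeq2 gave 138 and 33, limma 4 lower, and both the replicate block and the fit of all 12 libraries gave 1 lower. Leaving out 1 library gave 1 to 48 lower and 0 to 1 higher. There Cybb, at 0.01, turned to -0.0036 with upper quartile factors and ran from -0.17 to 0.21 with 1 library left out (-0.17 without p62F/F library 2, -0.11 without p62Δhep library 2). Cyba ran from -0.048 (without p62Δhep library 3) to 0.41, Ncf1 from 0.39 to 0.76, Ncf4 from 0.26 to 0.81 and Rac2 from 0.04 to 0.38; members called stayed at 0. With Tsc1 deleted, 1886 genes were lower and 1167 higher. DESeq2 gave 1775 higher, the replicate block 1198 and 649, all 12 libraries 2952 and 2249, and 1 library left out 760 to 3139 and 351 to 2686. Rac2 passed under DESeq2 (-1.27, adjusted p = 0.0191), upper quartile factors (-1.40, 0.0445) and the fit of all 12 libraries (-1.29, 0.0117). Without Tsc1Δhep library 3 and Tsc1/p62Δhep library 1, members lower were 2, triggering genes lower 10, Ncf1 -1.86 (edgeR adjusted p = 0.0607) and Ncf4 -2.68 (0.0602). Rac1 turned to -0.018 with upper quartile factors and -0.0080 without that pair. With 1 library left out, members lower ran from 1 to 5, triggering genes from 5 to 20, macrophage markers from 11 to 16 and pan leukocyte markers from 3 to 5, Cybb from -4.42 to -3.89, Cyba from -3.54 to -2.74, Ncf1 from -1.86 to -1.18, Ncf4 from -3.28 to -2.12 and Rac2 from -1.57 to -1.07. For the difference between backgrounds, Rac2 passed under DESeq2 (-1.46, 0.0228) and upper quartile factors (-1.55, 0.0451). One library left out gave 676 to 2551 genes lower, 465 to 2401 higher, 4 to 5 members, Cybb -4.44 to -3.91, Cyba -3.79 to -3.0, Ncf1 -2.46 to -1.77, Ncf4 -3.76 to -2.60 and Rac2 -1.75 to -1.24. Scaling over all 12 libraries gave 8.90 CPM for Cybb in Tsc1/p62Δhep. The 6 most alike genes shared 2 by Spearman and 0 over 6 libraries. The causes were not tested.

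Same-numbered libraries did not deviate together (correlations -0.42, -0.53 and 0.03 in the p62 table, -0.08, -0.08 and -0.13 in the Tsc1 table), so the numbers were not taken as pairing. With the replicate block and Tsc1 deleted, 11 triggering genes were lower and Ncf1 was -1.56 (edgeR adjusted p = 0.0605). Ncf4 in Tsc1/p62Δhep rested on 2 to 11 counts a library, which limits its precision.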
